A study of Drosophila melanogaster with 2 samples.

Results

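The peaks described here lie at the starts of non-coding genes, away from the starts of protein-coding genes, in a chromatin immunoprecipitation (ChIP-seq) map of the CG3407 protein in Drosophila melanogaster embryos. Of 30000 candidate intervals called on both replicates pooled, 867 had their summit within 500 bp of the transcription start site (TSS) of a lncRNA, antisense RNA or small RNA gene and more than 500 bp from every protein-coding TSS. They are called non-coding-start candidates below. Of these, 136 (15.7%) were also in the deposited list of 4089 reproducible peaks, beside 13.6% of all 30000 candidates. That list was made with the irreproducible discovery rate (IDR), which asks how well the ranks of peaks in separate replicates go together. The other 731 mix weaker peaks with background by the construction of the list.

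The embryos came from a transgenic line whose CG3407 protein ends in green fluorescent protein. Whole embryos of both sexes were collected over 0 to 14 h and their chromatin was sonicated to 200 to 800 bp. There was 1 group of 2 biological replicates, and untagged flies were not used here, so no comparison of conditions was possible. The labels disagree, since a free-text line calls each library an input control and the assay title and antibody field name a transcription factor ChIP, and the lists are described as called against a separate control. A whole-embryo map averages over all cell types and stages of that period.

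CG3407 is predicted to be a zinc-finger protein of the C2H2 type, a class that usually binds DNA. Non-coding genes make RNAs that work without being translated. Long non-coding RNAs (lncRNAs) and antisense RNAs are made by RNA polymerase II, often near or inside protein-coding genes. Small nuclear RNAs (snRNAs) work in splicing or, for 7SK, hold back the elongation factor P-TEFb. Small nucleolar RNAs (snoRNAs) guide the modification of ribosomal RNA, transfer RNAs (tRNAs) carry amino acids, and microRNAs (miRNAs) repress messenger RNAs. For miRNA, snoRNA and some tRNA genes the annotated start is that of the processed or hairpin RNA, so the primary transcript may begin elsewhere.

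The sequences below are the 101 bp around the summit of 8 of the 136 IDR peaks, shown because they are among the highest-scoring peaks (the first 5) or stand at the well-studied genes flamenco (flam), yellow-achaete intergenic RNA (yar) and bantam (mir-ban). They are the plus strand of dm6, 5′ to 3′, taken from the RefSeq copy of the assembly. Capitals mark matches, on either strand, to 1 of 10 short motifs: the forkhead-type words TATTTAC or TGTTTAC or TGTTTGC, the GAGA-factor word GAGAG, the Zelda word CAGGTAG, the DREF word TATCGATA, the TATA box TATAAA, the tRNA B box word GGTTCGA, the E box CAGCTG and the motif-1 word GGTCACAC. Only the mir-9378, CR45588 and yar windows among these 8 hold a match.
lncRNA:CR31840 (2L:14024030-14024130): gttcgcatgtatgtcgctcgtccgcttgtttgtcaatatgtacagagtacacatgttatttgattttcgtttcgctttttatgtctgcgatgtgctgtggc
lncRNA:CR31044 (3R:29214397-29214497): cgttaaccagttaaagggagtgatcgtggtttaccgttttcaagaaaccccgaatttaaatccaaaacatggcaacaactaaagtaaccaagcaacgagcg
mir-9378 (2L:10752050-10752150): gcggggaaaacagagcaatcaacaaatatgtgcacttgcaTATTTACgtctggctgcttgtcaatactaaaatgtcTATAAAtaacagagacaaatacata
lncRNA:CR44714 (3L:11247580-11247680): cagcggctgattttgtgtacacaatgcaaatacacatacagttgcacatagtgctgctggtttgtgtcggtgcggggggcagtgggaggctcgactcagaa
lncRNA:CR45588 (3R:5053758-5053858): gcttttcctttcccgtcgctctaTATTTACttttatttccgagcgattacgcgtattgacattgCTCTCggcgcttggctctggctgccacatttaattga
lncRNA:flam (X:21631690-21631790): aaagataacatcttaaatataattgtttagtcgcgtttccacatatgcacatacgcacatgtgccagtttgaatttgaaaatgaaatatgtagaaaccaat
lncRNA:yar (X:362258-362358): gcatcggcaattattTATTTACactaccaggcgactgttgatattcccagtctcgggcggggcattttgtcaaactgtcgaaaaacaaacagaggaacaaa
mir-ban (3L:642637-642737): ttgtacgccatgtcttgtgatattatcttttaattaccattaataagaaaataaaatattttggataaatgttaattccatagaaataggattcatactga

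Near these 8 summits, TATTTAC occurred at mir-9378, CR45588 and yar, TATAAA at mir-9378 and GAGAG, on the other strand, at CR45588. Across all 136 IDR peaks, 39.7% of windows held at least 1 of the 10 motifs (95% Wilson interval 31.9 to 48.1), against 39.1% of the 731 other non-coding-start candidates and 40.3% of all 30000 candidates. TATTTAC was present at 11 of the 136 IDR peaks (8.09%), at 35 of the 731 others (4.79%) and at 4.41% of all candidates, a difference between the first pair of 3.30 percentage points whose 95% Newcombe interval, −0.645 to 9.26, includes 0. In the whole IDR list the share was 8.36%. CAGCTG, an E-box, was present at 1 IDR peak (0.735%), 37 others (5.06%) and 4.50% of all candidates, and here the interval of the difference, −6.26 to −0.743 points, lies below 0. That interval is 1 of 10, with no adjustment for the number of motifs. In the whole IDR list the CAGCTG share was 3.62%. The windows of the 136 IDR peaks also had a lower median GC content than those of the 731 others, 31.7% against 40.6%. Its part in the motif counts was not tested.

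The other motifs did not separate the IDR peaks from the other candidates beyond counting error. GAGAG, the core of the GAGA-factor site, was at 13.2% of IDR peaks, 11.6% of the others and 11.9% of all candidates. TATAAA, the TATA box letters, was at 17.6%, 14.0% and 15.7% in the same order of groups, while TGTTTAC was at 2.21%, 3.15% and 3.72%, and TGTTTGC at 5.15%, 3.01% and 4.94%. GGTTCGA, the core of the internal B box of tRNA genes, was at none of the 136 IDR peaks, at 17 of the others (2.33%) and at 0.730% of all candidates. CAGGTAG, TATCGATA and GGTCACAC were also at none of the 136, with a Wilson upper bound of 2.75%, and were at 0.410%, 0.547% and 0.137% of the others and at 0.457%, 0.687% and 0.633% of all candidates. A match is a description of letters and no match says nothing of a factor's presence.

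Non-coding starts were in the IDR list about as often as the pooled candidates as a whole and less often than protein-coding starts. The 136 of 867 make 15.7% (Wilson interval 13.4 to 18.3), beside 13.6% of all 30000 candidates. At protein-coding TSSs 1579 of 6885 candidates were in the IDR list (22.9%), and away from every TSS used 2374 of 22248 (10.7%). Non-coding starts thus differed from protein-coding starts by −7.25 percentage points (Newcombe interval −9.73 to −4.50) and from the candidates away from TSSs by 5.02 points (2.71 to 7.62). In the list of each replicate alone, where the 4089 highest scores stood in for the IDR list, the non-coding share was 16.7% in replicate 1 and 15.4% in replicate 2 (mean 16.0 ± 0.90, SD, n = 2). Protein-coding starts gave 28.0% and 20.1% and the candidates away from TSSs gave 10.1% and 11.1%, so the order of the 3 kinds was the same in both replicates. The intervals cover counting error only, and neighbouring candidates are not independent.

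The same peaks can be counted by gene. The annotation has 3346 non-coding genes of these classes on the chromosome arms, and 134 of them had a non-coding-start IDR peak within 500 bp. This count is limited by the selection, since only 2804 of the 3346 have a TSS more than 500 bp from every protein-coding TSS. The nearest genes of the 136 peaks were 127 separate genes, because 9 genes were nearest to a pair of peaks each. For 9 of the 136 peaks at least 1 more non-coding gene started within 500 bp, so the assignment to 1 gene is uncertain there. Adding the non-coding genes that the annotation does not place in these classes, such as the snoRNA host genes, would add no candidate.

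The strongest peak lay on the start of lncRNA:CR31840, an uncharacterised gene on arm 2L. It spanned 2L:14023882-14024396 on dm6, with its summit 19 bp inside the gene. The score was 3405 in the pooled list (rank 18), 1357 in replicate 1 (rank 16) and 2109 in replicate 2 (rank 17). Scores are those of the authors' peak caller, on a scale of their own in each list, so ranks are what can be set side by side. A pair of further IDR peaks stood upstream of the neighbouring lncRNA:CR45352, with scores of 728 (rank 326) and 170 (rank 3846). CR31840 was the only non-coding start besides that of lncRNA:CR44339 among the 50 highest candidates, and 24 of the 500 highest were non-coding starts, beside 867 of all 30000.

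At lncRNA:CR44339, whose nearest protein-coding TSS is that of the Polycomb-group gene Psc 4198 bp away, the summit lay 175 bp upstream of the start. Its score was 1771 (rank 50), with rank 55 in replicate 1 and rank 46 in replicate 2. The GC content of its summit window was 24.8%.

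lncRNA:CR31044 held the next highest peak and is the gene that contains mir-279 and mir-996 on the same strand, a pair of miRNAs known for repressing the formation of carbon-dioxide-sensing neurons. The peak at 3R:29214256-29214608 had its summit 115 bp upstream of the start of CR31044. Its score was 1355 (rank 75), with 495 (rank 102) in replicate 1 and 856 (rank 71) in replicate 2. The nearest protein-coding TSS, that of eEF1gamma, was 5725 bp away.

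Other miRNA-bearing transcripts also carried IDR peaks, and others did not. lncRNA:CR43626, which contains mir-282, had a peak of score 582 (rank 501) 359 bp upstream of one of its starts, with rank 458 in replicate 1 and 568 in replicate 2. lncRNA:CR43650, which contains mir-8, the fly member of the miR-200 family, had a pair of IDR peaks with scores of 226 and 188. asRNA:CR46194, which contains mir-281-1 and mir-281-2, had 1 of score 218. In all, 4 of the 106 lncRNA and antisense RNA genes with an IDR peak contained a small RNA gene on the same strand (3.77%; 1.48 to 9.30), against 18 of the 462 such genes with other candidates only (3.90%; 2.48 to 6.07). These shares differ by less than their intervals. Among the 18 were the transcripts of mir-14, mir-184, mir-124 and mir-1.

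bantam, a miRNA that promotes growth and blocks cell death, illustrates the difference between a hairpin and its transcript. An IDR peak at 3L:642479-642894 lay 479 bp downstream of the annotated bantam start, with a score of 197 (rank 3110), 82.8 in replicate 1 (rank 3049) and 167 in replicate 2 (rank 1863). That summit is near the 500 bp limit, and another IDR summit, beyond the limit, lay 226 bp from it. At starts of lncRNA:CR43334, the transcript that contains bantam, the highest candidate scored 152 (rank 4521) and was outside the IDR list.

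Some miRNA peaks lay inside protein-coding genes. The mir-9378 summit stood 162 bp upstream of the hairpin in an intron of CG17124, transcribed from the same strand, with a score of 1142 (rank 105), rank 139 in replicate 1 and rank 100 in replicate 2. mir-9377, in an intron of Tis11, had a score of 462, and mir-4962, in an intron of Tlk, had 400, with summits 413 and 17 bp downstream of the hairpin starts. All 3 hairpins are on the strand of their host gene, and the summits were more than 1000 bp from a protein-coding TSS.

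The next peaks by score followed the same pattern of uncharacterised lncRNAs. lncRNA:CR44619 on the X had a pair of summits inside 1 broad interval, at 493 bp downstream (score 1056, rank 145) and 447 bp upstream (score 943, rank 184) of its starts. That interval, X:12750189-12752556, also holds a summit of score 10681, the third highest of all, which at 851 bp from the start of lncRNA:Vinr missed the limit. lncRNA:CR44714 (score 950, rank 178, summit 398 bp upstream) had another IDR summit 842 bp away. Its interval, 3L:11247319-11247797, also lay close to that of the second highest candidate of all, 3L:11245891-11246924, with a score of 17753. lncRNA:CR45588 had 873 (rank 212), with rank 421 in replicate 1 and 148 in replicate 2, and was the farthest of the 136 from a protein-coding TSS, at 32904 bp.

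Among the remaining named peaks, several stood near genes of known roles. lncRNA:CR44810 (score 971) lay in the region of slbo, the C/EBP factor of border cell migration, 4534 bp from its TSS. lncRNA:CR46036 (866) is in an intron of osa, a subunit of the Brahma chromatin remodeller, and lncRNA:CR44409 (693) in an intron of Dif, an NF-kappaB factor of immunity. lncRNA:CR45668 (701) was 645 bp from the TSS of the actin gene Act5C, and lncRNA:CR42657 (691) was 688 bp from that of nej, which encodes the acetyltransferase CBP. lncRNA:CR44867 (824) and lncRNA:CR44868 (517) lay 912 bp apart in an intron of beat-Ib, an axon guidance gene. lncRNA:CR46102 (761) is in LpR2, a lipophorin receptor, and lncRNA:CR45595 (755) and lncRNA:CR44380 (638) had no protein-coding gene around their start.

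Antisense RNA genes held 11 IDR peaks among 60 candidates (18.3%). The highest, asRNA:CR44429, lies on the opposite strand within gce, a juvenile hormone receptor. Its score was 866 (rank 220), with rank 186 in replicate 1 and 263 in replicate 2, and its summit was 533 bp from the gce TSS, only just outside the limit. asRNA:CR46044 (454), opposite Septin2, lay 559 bp from the Septin2 TSS, and asRNA:CR45281 had 428. The median distance of the 11 from a protein-coding TSS was 837 bp, beside 1180 bp for the 49 other antisense candidates. Of the 11 summits 10 were upstream of the antisense start, and of the 49 others 30 were.

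Small RNA genes held 22 IDR peaks among 187 candidates (11.8%; 7.90 to 17.2). They made up 16.2% of the IDR peaks and 22.6% of the others, a difference of −6.40 points (−12.5 to 1.27) whose interval includes 0. In the list of replicate 2 alone the difference was −9.25 points (−15.7 to −1.21), below 0, and in that of replicate 1 alone it was −4.49 points (−9.87 to 2.53). tRNA genes stood lowest, with 6 of 92 (6.52%; 3.02 to 13.5), while lncRNA genes had 103 of 620 (16.6%; 13.9 to 19.7). Set the other way, 4.41% of the IDR peaks and 11.8% of the other candidates were at tRNA genes, a difference of −7.35 points with an interval of −10.8 to −2.03. That interval is 1 of those for the several classes, with no adjustment for their number. It rests on 6 peaks, of which 2 are at the same gene, tRNA:Gly-TCC-2-2. In the single-replicate lists 7.94% and 5.17% of tRNA candidates were among the 4089 highest (6.55 ± 2.0, SD, n = 2). miRNA genes had 6 of 46 (13.0%), snoRNA genes 5 of 27 (18.5%), snRNA genes 4 of 17 (23.5%) and other small RNA genes 1 of 5. The intervals of these last 4 classes all include the 13.6% of all candidates.

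**Figure D1:**
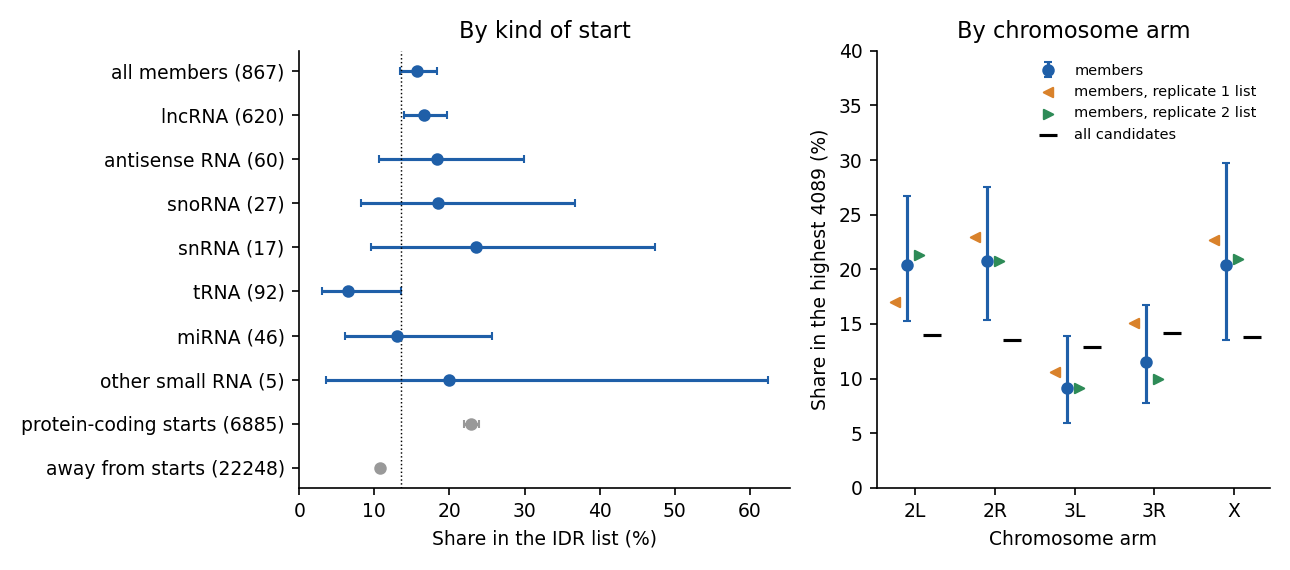
Left, share of candidates in the IDR list (x axis, %) for the 867 non-coding-start candidates (members), for each class of non-coding gene, and for protein-coding starts and candidates away from starts in grey, with the number of candidates in brackets; bars are 95% Wilson intervals and the dotted line is the 13.6% of all candidates. Right, the same share by chromosome arm for members, for members of each replicate list (4089 highest scores) and for all candidates; members on 3L and 3R sit lower than those on 2L, 2R and X in every list.

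The tRNA peaks were moderate ones. tRNA:Gln-TTG-2-1 led with 391 (rank 1043), followed by tRNA:Arg-CCT-1-2 with 284 and tRNA:Gly-TCC-2-2 with 263 and a further peak of 167. The 3 leading summits lay 249, 124 and 234 bp upstream of the tRNA starts. The snoRNA peaks ran down to 172 and were led by snoRNA:Psi28S-2949 with 786 (rank 270), 585 bp from the TSS of Boot, then snoRNA:Or-ACA6 with 314 and snoRNA:185 with 230. The Psi28S-2949 summit also lay 30 bp upstream of the start of Uhg4, the host gene that carries snoRNAs in its introns and has no class in the annotation. Among the other such hosts, Uhg2 had an IDR peak 104 bp upstream (score 237) that lies at a protein-coding TSS and so was not selected, and the nearest candidates to Uhg1 and Uhg3 scored 91.9 and 91.7 and were outside the IDR list. snoRNA:Psi18S-176 (172) was the 1 IDR peak of the 136 without an overlapping candidate in replicate 1. sncRNA:204, the only one of the last class, had 166, the lowest score of the 136.

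The 4 snRNA peaks were at 7SK, U1 and U4 genes. snRNA:7SKa had a score of 299 (rank 1666) with its summit 262 bp inside the gene, and the replicates differed in rank, 4268 in replicate 1 (score 66.0) and 980 in replicate 2 (score 240). snRNA:U1:95Ca had 223 (71.9 in replicate 1 and 157 in replicate 2), snRNA:U1:21D had 216 (76.3 and 145) and snRNA:U4:39B had 210 (81.1 and 126). The U1:21D window occurs 4 times as an exact match on the chromosome arms, so reads there fit more than 1 place. It is the only window with an exact repeat among the 867. Near-identical copies were not counted, so the other windows need not be unique to reads. These 4 windows had GC contents of 49.5% to 72.3%, above the upper quartile of the 136, and the 13 other snRNA candidates had a median of 42.6%. snRNA:U5:63BC (162, rank 4123) and snRNA:U6:96Ac (160, rank 4192) were among the 5 highest candidates just outside the IDR list, with lncRNA:CR44537, lncRNA:CR44761 and lncRNA:CR45303, each at 161.

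Of 78 well-studied non-coding genes, 30 had a non-coding-start candidate and 7 (8.97%; 4.42 to 17.4) an IDR peak, beside 134 of all 3346 non-coding genes (Wilson interval 3.39% to 4.72%). These intervals overlap, and the list was chosen with earlier results of these data known. It also holds many snRNA genes, the class with the highest share of genes with an IDR peak (12.5%; 4.97 to 28.1). The shares therefore do not show that well-studied genes are bound more often. The 7 were bantam and the 4 snRNA genes above, flam and yar. snRNA:U5:35D also had an IDR summit within 500 bp (score 189), which lay near a protein-coding TSS as well and so is not one of the 136. flam is the piRNA cluster that silences gypsy-family transposons in the follicle cells of the ovary, and its peak at X:21631647-21631750 lay 151 bp upstream of the start. Its score was 263 (rank 2037), with 130 in replicate 1 (rank 1531) and 139 in replicate 2 (rank 2446). yar is a lncRNA between yellow and achaete that has been linked to sleep. Its peak had its summit 91 bp upstream of the start and a score of 204 (rank 2945), with 111 in replicate 1 (rank 1975) and 94.8 in replicate 2 (rank 4451). Both ranks of flam lie within the highest 4089, and yar's in replicate 2 does not.

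The dosage compensation and stress RNAs were outside the IDR list. Hsromega, the heat-shock lncRNA of the nuclear omega speckles, had 5 candidates, of which the highest scored 160 (rank 4199), just under the lowest IDR score. roX2, an RNA of the dosage compensation complex, had 1 candidate of 45.5 (rank 24703), and its partner roX1 had none within 500 bp. acal had 85.4, the bithorax-complex RNA iab8 had 45.7 and the RNase MRP RNA gene had 101. bxd, the 7SL genes and the RNase P RNA gene had no candidate within 500 bp. In this list the presence of a candidate says little, since it includes background.

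Both replicates held nearly all of the 136 IDR peaks. An overlapping candidate (by at least 1 bp) was present for 135 of 136 in replicate 1 and for all 136 in replicate 2, against 70.2% and 77.2% of the 731 others. A candidate among the 4089 highest of both replicates overlapped 109 of the 136 (80.1%) and 1 of the 731 (0.137%). This gap follows in part from how the IDR list was made, since its peaks are the 4089 with the highest scores among the pooled candidates. Across the 135 peaks seen in both, Spearman's rho between the replicate scores was 0.77, and across the 380 others seen in both it was 0.39. Peaks share a library and these are descriptions only. The 380 hold 361 separate pairs of replicate candidates. Since pooled score fixed the split, the others span a much narrower range of it, 39.5 to 162 against 166 to 3405. The gap between the values of rho is therefore no result. The median rank of the 136 was 1940 in replicate 1 and 2023 in replicate 2.

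**Figure D2:**
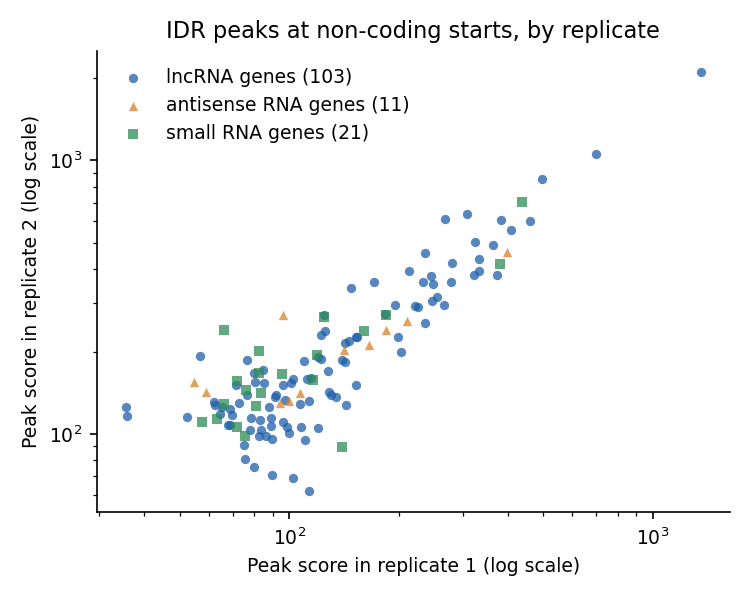
Peak score in replicate 1 (x axis, log scale) against replicate 2 (y axis, log scale) for the 135 IDR peaks at non-coding starts with a candidate in both lists; each point is 1 peak, with circles for lncRNA, triangles for antisense RNA and squares for small RNA genes. The points follow 1 band, with CR31840 highest at 1357 in replicate 1 and 2109 in replicate 2, and scatter most at low scores.

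By score the 136 resembled the IDR list they belong to. Their scores ran from 166 to 3405 with a median of 264 and quartiles of 208 and 456, beside a median of 262 for all 4089, and the 731 others had a median of 58.1 and a highest value of 162. Since score fixed which candidates were in the list, the last gap is no result. By rank, non-coding starts made up 2 of the 50 highest candidates, 4.89% of the next 450, and between 2.69% and 3.18% of every later band. The median width was 416 bp in the IDR group and in the rest.

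The IDR peaks and the other candidates also differed in base composition, which the selection did not use. The GC content within 50 bp of the summit had a median of 31.7% in the IDR peaks (quartiles 26.7 and 39.6) and of 40.6% in the other non-coding-start candidates (34.7 and 48.5). With the 4089 highest of each replicate in place of the IDR list the medians were 31.7% in both replicates, against 41.6% and 40.6%. The low GC content was not particular to non-coding starts: IDR peaks at protein-coding starts had 32.7%, against 40.6% in other candidates there, and those away from TSSs had 33.7%, against 39.6%. Antisense RNA peaks had the lowest median, 28.7%, against 39.6% in other antisense RNA candidates. For lncRNA genes the medians were 31.7% and 41.6%. For small RNA genes they were 39.1% and 40.6%, a much smaller gap. Within the small RNA genes, miRNA peaks had 33.2% against 41.1%, tRNA peaks 35.1% against 40.1% and snoRNA peaks 39.6% against 41.6%. The 4 snRNA peaks went the other way, with 52.5% against 42.6%. GC content also affects fragment recovery and sequencing, and its part in these scores was not tested.

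**Figure D3:**
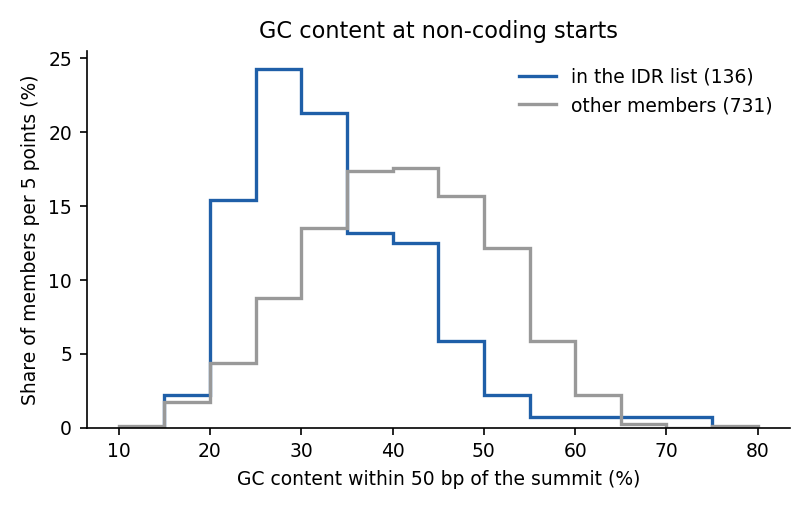
Share of candidates (y axis, %) per 5-point bin of GC content within 50 bp of the summit (x axis, %), for the 136 non-coding-start candidates in the IDR list and the 731 other members. The IDR group is shifted to lower GC content, with a median of 31.7% against 40.6%.

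The summits of the IDR peaks were spread on both sides of the non-coding TSS, unlike those at protein-coding TSSs. Upstream of the start lay 78 of 136 IDR summits (57.4%; 49.0 to 65.4) and 375 of 731 others (51.3%; 47.7 to 54.9), a difference of 6.05 points with an interval of −3.09 to 14.8. The single-replicate lists gave 56.5% in both, against 51.6% and 50.8%. The classes differed, with 56.3% of IDR summits upstream at lncRNA genes, 45.5% at small RNA genes and 10 of 11 at antisense RNA genes. At protein-coding TSSs 79.9% of IDR summits and 60.2% of the others were upstream, so within the IDR list non-coding starts differed from protein-coding ones by −22.5 points (−31.1 to −14.3). With a limit of 250 bp in place of 500 bp for both kinds of TSS, the difference between IDR summits and others at non-coding starts was 18.0 points (6.56 to 28.0). No value for protein-coding starts is given at that limit.

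The distance profile was broad. Only 22.1% of IDR summits and 23.0% of the others lay within 100 bp of the non-coding start, and the median signed position was 64 bp upstream in the IDR peaks and 11 bp upstream in the others. In bins of 100 bp, the IDR peaks were fewest from 100 to 200 bp downstream, with 2 of 136 (1.47%; 0.404 to 5.20), where 90 of 731 others lay (12.3%; 10.1 to 14.9). The bin was singled out after its values were seen. At protein-coding starts the profile had a peak, with 28.9% of IDR summits between 200 and 100 bp upstream and 3.99% between 100 and 200 bp downstream.

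**Figure D4:**
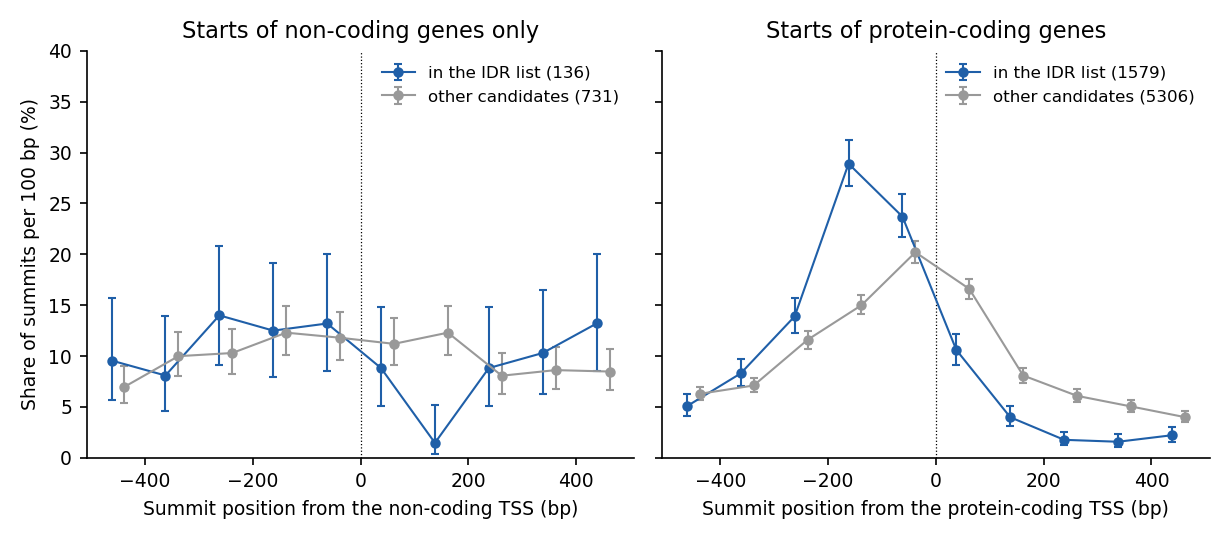
Share of summits (y axis, %) per 100 bp of position from the nearest TSS (x axis, bp; negative is upstream), for IDR peaks in blue and other candidates in grey, at non-coding starts (left) and protein-coding starts (right); bars are 95% Wilson intervals. The non-coding profile is broad, with 1.47% of IDR summits from 100 to 200 bp downstream, while 28.9% of protein-coding IDR summits lie from 200 to 100 bp upstream.

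Surroundings in protein-coding genes did not separate the IDR peaks from the others. The non-coding TSS lay inside a protein-coding gene for 37.5% of the IDR peaks and 35.3% of the others, and the summit lay in an intron for 35.3% and 30.8% and outside protein-coding genes for 61.8% and 63.9%. None of the 136 summits was in a coding exon and 14 of the 731 were (1.92%). The median distance to the nearest protein-coding TSS was 2942 bp in the IDR peaks and 3461 bp in the others, and 15.4% and 13.3% lay between 501 and 1000 bp from one. A summit just past the limit may still belong to a protein-coding promoter; 21 IDR peaks are in that zone.

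IDR peaks at non-coding starts had a further IDR peak close by more often than IDR peaks elsewhere. Another IDR summit lay within 1000 bp of 37 of the 136 (27.2%; 20.4 to 35.2), against 17.0% of IDR peaks at protein-coding starts and 17.0% of those away from TSSs, and the difference from each was 10.2 points (3.19 to 18.5 and 3.23 to 18.3). Among the 731 other non-coding-start candidates the share was 12.6%. For example, the pair at CR43650 lay 218 bp apart and the pair at CR44380 lay 203 bp apart. Where both peaks of such a pair are among the 136, each is counted. The 37 are thus not independent, and the intervals do not allow for this. Of the 136, 4 had the same start and end as another of the 136, and 10 had an interval that overlapped another by at least 1 bp.

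The share in the IDR list differed between chromosome arms for non-coding starts. On 3L 19 of 207 (9.18%; 5.95 to 13.9) and on 3R 23 of 200 (11.5%; 7.79 to 16.7) were in the list, against 39 of 191 on 2L (20.4%), 36 of 173 on 2R (20.8%) and 19 of 93 on X (20.4%). Arm 4 had 3 candidates, none in the list. Grouped after these values were seen, the third-chromosome arms had 42 of 407 (10.3%; 7.73 to 13.7) and the other arms 94 of 457 (20.6%; 17.1 to 24.5). All candidates were level, with 13.6% on 3L and 3R and 13.8% on 2L, 2R and X, as were protein-coding starts (23.8% and 22.3%) and candidates away from TSSs (10.7% on both). Both replicates showed the gap, with 12.7% against 20.2% in replicate 1 and 9.61% against 21.0% in replicate 2, and so did lncRNA genes (11.9% against 21.0%) and small RNA genes (3.66% against 18.3%). With the 2044 highest-scoring IDR peaks alone the gap of −10.2 points was −3.92 points. The shorter list lowers every share by construction, so these gaps are not on the same scale.

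The limits of the selection decide which named sites are included. Just inside the 500 bp limit of a non-coding TSS were lncRNA:CR45243 at 499 bp (score 408) and lncRNA:CR44667 at 497 bp (169), and just beyond it lncRNA:CR42736 at 503 bp (194) and lncRNA:CR44363 at 507 bp (800, rank 260). Just outside the protein-coding limit were lncRNA:CR44365 at 530 bp (217) and asRNA:CR44429 at 533 bp, and just within it, and so left out, lncRNA:CR45618 at 480 bp (408) and lncRNA:CR44498 at 446 bp (252). The second highest candidate of the whole list, with a score of 17753, lay 521 bp from the start of lncRNA:CR44713, beyond the non-coding limit, and was left out for that reason.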

How the data were processed

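Chromatin from 2 biological replicates of CG3407-GFP embryos was mapped by ChIP-seq. Per the file headers, the authors derived a candidate list from each replicate, and 1 from both pooled, using alignments and 1 control file, and the IDR list from these lists. Each candidate list has 30000 intervals on dm6. Which aligner, peak caller and threshold were used is not given in the sources used here, and no read totals were used, so the depth is unknown. The score is the deposited value of the peak caller. The deposited −log10 q values were used only to count ties: 117 of the 136 IDR peaks share the highest one. A summit is the interval's start plus the deposited summit offset.

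Starts of every annotated transcript came from Ensembl release 115, without transposable elements, and bases from RefSeq, Release 6 of the genome. Members, gene lists and motifs were chosen with earlier results of these data known. Candidates in the pooled and IDR lists were matched by interval and summit. Shares carry 95% Wilson intervals and differences 95% Newcombe intervals, which cover counting error only. No p-value was computed, since there is 1 group and regions are not replicates. Named genes are the nearest to the 20 highest IDR peaks, the 3 highest of each class, the 5 highest other candidates, those nearest the 500 bp limits and the well-studied genes. The scripts were tested on simulated data (Python 3.11.15, pandas 2.3.3, numpy 2.4.6).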

Additional observations from a re-analysis of the deposited data

How the results depend on the processing

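With 250 and 1000 bp in place of 500 bp for both kinds of TSS, there were 535 and 1344 candidates. The IDR peaks, 136 in the main setting, numbered 84 with 250 bp, 195 with 1000 bp and 71 with the 2044 highest-scoring IDR peaks alone. The share in the list was 14.5% with 1000 bp and 8.19% with those 2044. The difference in upstream share was 18.0 points with 250 bp, 2.97 with 1000 bp, 5.42 with the canonical TSS alone and 10.6 with the 2044. The difference in median GC content, −8.91 points, was −7.43 with 250 bp and −9.90 with the 2044. IDR peaks matched in replicate 1 were 88.2% with 50% reciprocal overlap, and in replicate 2 94.1% with that and 97.1% with summits within 100 bp.

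From the list of 1 replicate at a time there were 828 to 851 candidates, 131 to 138 of them among the highest 4089 (15.4% to 16.7%). The upstream difference was then 4.93 to 5.66 points, the small RNA difference −9.25 to −4.49 (−6.40 in the main setting) and the GC difference −9.90 to −8.91. The arm gap of −10.2 points was −6.33 with 1000 bp, −3.92 with the 2044 and −11.4 to −7.45 with 1 replicate. The tRNA share was 3.26% with the 2044. The shorter list lowers this share, and those behind the arm gap, by construction. No difference changed sign under these settings. Leaving out the 1 peak with a repeated window was chosen after seeing the data. No paired analysis was possible because there is 1 group. Other causes of these shifts were not tested. With no read counts, the depth behind each peak is unknown.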
